A study of Mus musculus with 9 samples.

Results

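In cultured mouse natural killer (NK) cells, 129 genes stood near their untreated level after TGF-β1 alone and were higher when the cells had received SIS3 before TGF-β1. They were chosen by measured values of these same libraries. CPM is the expected count of a gene scaled to the same library total in every sample. A gene was taken if its mean over the 9 libraries was at least 2 CPM, if log2((TGFb + 0.5)/(Ctrl + 0.5)) of the group means lay between -0.25 and 0.25, and if log2((SIS3_TGFb + 0.5)/(TGFb + 0.5)) was at least 0.8. Below, these log2 ratios are called the TGF-β1 step and the SIS3 step. Of 16876 genes in the table, 10813 reached 2 CPM, and the 129 members are 1.19% of those. The choice used every library and both steps, and the difference between SIS3_TGFb and Ctrl follows from them, so the members' levels are given as a description, with no test.

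The libraries form 3 groups of 3, all of NK cells grown from C57BL/6 bone marrow. In the SIS3_TGFb group, SIS3 (10 µM, 3 h) preceded TGF-β1 (5 ng/mL, 3 h). The TGFb group had the same TGF-β1 exposure alone, and Ctrl cells were left untreated. Marrow of every group had grown for 4 days with 50 ng/mL IL-15, 30 ng/mL SCF, 10 ng/mL Flt3L and 1 ng/mL IL-7, followed by 1 week with 20 ng/mL IL-2 and 50 ng/mL IL-15. The titles of the SIS3_TGFb samples name SIS3 alone, whereas their treatment text adds TGF-β1. SIS3 without TGF-β1 was not among the groups, so an effect of SIS3 by itself and an effect of SIS3 together with TGF-β1 cannot be told apart. The sources used here name no solvent control, and the labels do not say whether replicates were separate mice or cultures.

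SIS3 is a small molecule used to block Smad3, the factor that carries the TGF-β signal from its receptor to the nucleus. The rule leaves out genes that moved beyond the window at the TGF-β1 step. Whether the members depend on Smad3 was not tested. Several of the members belong to stress programmes that NK cells share with most cell types. When amino acids run short or proteins misfold, kinases phosphorylate the initiation factor eIF2α, most translation slows, and the transcription factor ATF4 is made. ATF4 raises genes for amino acid uptake, amino acid synthesis and the charging of tRNAs. Misfolded protein in the endoplasmic reticulum also activates IRE1, which splices the mRNA of Xbp1, and excess zinc activates metallothionein genes through MTF1.

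Library totals ran from 15714973 to 16718673 expected counts. The NK marker genes summed to 17681 to 18091 CPM in SIS3_TGFb libraries, 15624 to 16528 CPM in TGFb libraries and 20630 to 21479 CPM in Ctrl libraries. No member (0 of 129) is in any of the 10 marker lists for NK or other cell types. TGFb replicate 3 stood apart from its group, with erythroid and megakaryocyte markers at 7.32 CPM against 38.1 and 30.8 CPM in the other TGFb libraries, and without it the rule finds 115 members. Smad3 mRNA itself measured 5.80 ± 0.906 CPM in SIS3_TGFb, 9.51 ± 0.426 CPM in TGFb and 4.25 ± 0.869 CPM in Ctrl libraries (SD, n = 3 each). SIS3 acts on the protein, so this level does not check the labels. In bulk RNA, fewer cells of a type and less RNA per cell cannot be told apart.

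**Figure D1:**
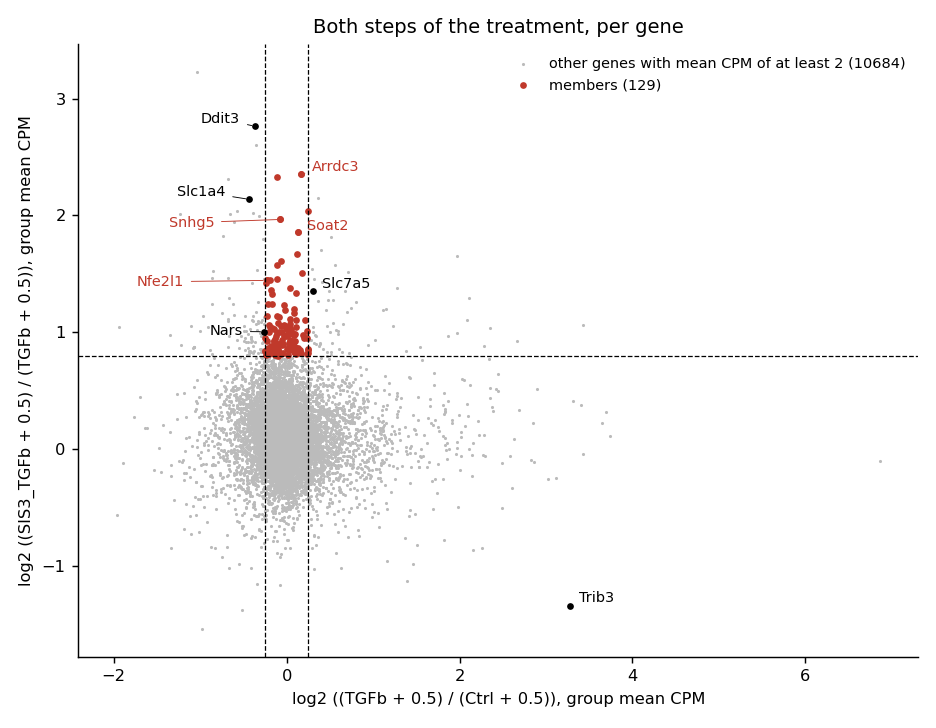
Each point is a gene with a mean of at least 2 CPM, placed by its TGF-β1 step (horizontal axis, log2) and its SIS3 step (vertical axis, log2), with dashed lines at the thresholds of the rule. The 129 members (red) fill the column between the vertical lines above 0.8, and Ddit3, Slc1a4, Nars and Slc7a5 (black) lie above 0.8 but outside that column.

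At the SIS3 step, 288 genes reached 0.8. Of these, 129 (44.8%) lay within the window at the TGF-β1 step and are the members, 96 (33.3%) lay below it and 63 (21.9%) above it. Over all 10813 genes with at least 2 CPM, a larger share (70.2%) lay within the window. In the other direction the window held far fewer genes: of 7593 genes within it, 6 were lower by as much at the SIS3 step. Those 6 included S100a11, a calcium-binding protein, at 282 ± 7.94 CPM in SIS3_TGFb, 633 ± 9.47 CPM in TGFb and 667 ± 28.7 CPM in Ctrl libraries (SD, n = 3 each), and it was picked after its values were seen. The imbalance depends in part on scaling. With CPM on library totals the median SIS3 step over the 10813 genes was 0.09, and with TMM scaling, which aligns the bulk of the genes, it was 0.01. Under TMM scaling the rule found 84 genes, 80 of them among the 129, and 13 genes were lower by as much.

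The members' SIS3 step ran from 0.80 to 2.35 with a median of 0.93. It was at least 1 in 47 members and at least 2 in 3. Their TGF-β1 step had a median of -0.06, against -0.03 over the 10813 genes, and lay above 0 in 52 members and below 0 in 77. Summed over the members, the level was 10486 ± 338 CPM in SIS3_TGFb libraries, 5049 ± 113 CPM in TGFb libraries and 5288 ± 37.5 CPM in Ctrl libraries (SD, n = 3 each). Mean levels ran from 2.02 to 768 CPM with a median of 17.0, with 51 members under 10 CPM and 19 at 100 CPM or more.

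In all 129 members the 3 SIS3_TGFb libraries lay above the other 6 libraries, which 27.1% of the 10813 genes also did. The choice of members leads to this, so nothing is read from it. The TGFb and Ctrl libraries did not overlap in 29 members, with TGFb below in 23 and above in 6, against 47.3% of the 10813 genes, and here too the rule fixed the outcome by keeping the groups close. Within groups the members' median coefficient of variation was 5.50% in SIS3_TGFb and 7.78% in TGFb libraries, against 4.55% and 5.40% over the 10813 genes in the same groups. Of the 3 SIS3_TGFb libraries, replicate 3 was lowest for 65 members, at a median of 96.1% of the other two. TGFb replicate 3 was lowest of its group for 66 members, at a median of 94.2% of the other two.

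**Figure D2:**
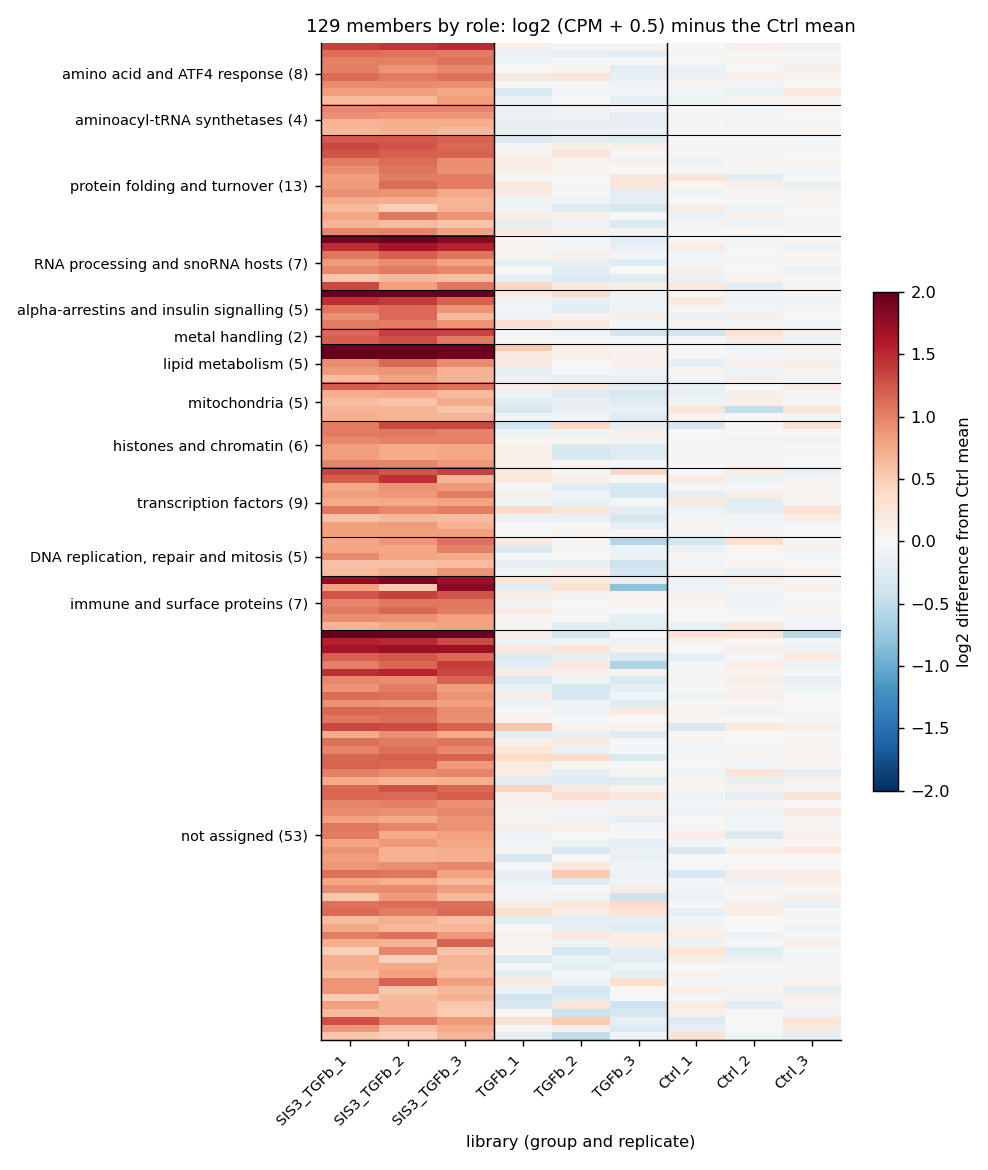
Rows are the 129 members, grouped by role and ordered by SIS3 step within each role, and columns are the 9 libraries; colour is log2(CPM + 0.5) minus the mean of the Ctrl libraries. The SIS3_TGFb columns are red in every role, while TGFb and Ctrl columns stay near 0.

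Close to the thresholds, Psph (SIS3 step 0.802) and Tbpl1 (0.806) were just inside, and Ccpg1os (0.798) and Zfp105 (0.792) just outside. At the upper edge of the window, Elovl7 (TGF-β1 step 0.249) and Spire1 (0.247) were inside, and Piga (0.256) and Wnt9a (0.285) outside. At the lower edge, Rbbp8 (-0.248) and Xpnpep3 (-0.247) were inside, and Erlin1 (-0.257) and Nars (-0.260) outside. On mean level, Sfmbt2 (2.02 CPM) and Irak1bp1 (2.13 CPM) were inside, and Ankrd33b (1.73 CPM) and Cdh11 (1.70 CPM) outside. With each library left out in turn, 65 members were kept every time. Members kept neither then nor with TMM scaling included Psph, Eprs, Zfand2a, Xbp1, Dnajb9, Gemin2, Pik3ip1, Elovl7, Sfmbt2, Smad1, Hax1, Tk2 and Ndc80. All of these are described below. Those kept with TMM scaling only included Nfe2l1, Arrdc3, Slc30a1, Tbc1d31, Glrp1, Bmyc, Csprs, H2bc23, H2bc24, Hcar2, Mcu, Rad51c and Irak1bp1. The reverse held for some others, such as Them4.

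Roles could be given to 76 members from general knowledge after the membership was known, and 53 have none here. The amino acid and ATF4 group has 8 members, the tRNA synthetases 4, protein folding and turnover 13, RNA processing 7, arrestins and insulin signalling 5, metal handling 2, lipid metabolism 5, mitochondria 5, histones and chromatin 6, transcription factors 9, replication and mitosis 5, and immune and surface proteins 7. Median SIS3 steps of these groups ran from 0.86 for protein folding and for transcription factors to 1.32 for metal handling.

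Short stretches of promoter are shown first for some members described below, because each holds the letters of an element known from amino acid stress, protein misfolding, metal or FOXO responses. They were picked after the matches were known, and Gemin2 and Hax1 are not in the ATF4 list. RefSeq promoters (GRCm38.p6, 250 bases before to 50 after a start) matched 101 of the 129 members. Member counts below are out of these 101, and no share over all 129 is given. Each motif was searched on both strands, and capitals mark the match. TGATGCAA, the composite site bound by ATF4 with C/EBP factors, is held by 0.895% of the 32851 promoters in the table and by 0.755% of the 8737 genes with at least 2 CPM and a promoter, and among the members by Aars, Gemin2 and Hax1. TGACGTCA, the cyclic AMP response element, is held by 1.79% of all promoters and 3.77% of those genes, and by 7 members, of which Ppp1r15a and Zfand2a are shown. TGACGTGG, an element of the unfolded protein response that shares its first letters with that site, is held by 0.676% of all promoters and 1.02% of those genes. GTAAACA, a FOXO site, is held by 3.65% and 3.12%, and by the members Casp4, Kctd15 and Txnip, of which Txnip is shown. The windows of Irs2 and Pik3ip1, members from the FOXO list, do not hold these letters. The core of the metal response element, TGCGCNC or TGCACNC, is short and is held by 25.7% of all promoters and 40.4% of those genes. A match is a description of the letters and not evidence of binding. The promoters lie at chr8:111033592-111033891 on the plus strand for Aars, chr12:59013141-59013440 (plus) for Gemin2, chr3:89998054-89998353 (minus) for Hax1, chr7:45526219-45526518 (minus) for Ppp1r15a, chr5:139484442-139484741 (minus) for Zfand2a, chr11:96829919-96830218 (minus) for Nfe2l1, chr3:96557707-96558006 (plus) for Txnip, chr8:94172368-94172667 (plus) for Mt2 and chr1:191906531-191906830 (plus) for Slc30a1. For Aars, Hax1 and Slc30a1 the start is one inside the span of the gene and not its outermost start.
Aars, composite site: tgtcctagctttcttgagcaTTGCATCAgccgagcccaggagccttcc
Gemin2, composite site: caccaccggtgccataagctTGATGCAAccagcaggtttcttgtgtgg
Hax1, composite site: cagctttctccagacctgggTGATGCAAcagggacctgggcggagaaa
Ppp1r15a, cyclic AMP response element: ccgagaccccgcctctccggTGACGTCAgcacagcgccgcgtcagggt
Zfand2a, cyclic AMP response element: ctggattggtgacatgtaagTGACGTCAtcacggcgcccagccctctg
Nfe2l1, unfolded protein response element: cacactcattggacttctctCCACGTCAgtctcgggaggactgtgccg
Txnip, FOXO site: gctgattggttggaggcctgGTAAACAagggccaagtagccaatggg
Mt2, metal response cores: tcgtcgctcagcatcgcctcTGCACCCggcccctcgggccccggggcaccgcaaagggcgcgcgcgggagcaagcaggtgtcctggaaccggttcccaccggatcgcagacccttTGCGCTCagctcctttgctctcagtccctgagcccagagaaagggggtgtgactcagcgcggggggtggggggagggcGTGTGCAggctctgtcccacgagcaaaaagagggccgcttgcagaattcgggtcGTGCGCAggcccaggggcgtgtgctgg
Slc30a1, metal response cores: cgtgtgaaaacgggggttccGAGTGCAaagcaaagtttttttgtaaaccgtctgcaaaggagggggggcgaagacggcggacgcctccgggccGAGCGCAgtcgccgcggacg

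The amino acid and ATF4 group was led by Slc6a9, which encodes the glycine transporter GLYT1. Slc6a9 had 54.7, 56.8 and 59.2 CPM in the SIS3_TGFb libraries, 22.6, 20.1 and 21.9 CPM in the TGFb libraries and 20.8, 22.4 and 19.4 CPM in the Ctrl libraries, a SIS3 step of 1.38. The TGFb and Ctrl libraries overlapped, and every SIS3_TGFb library lay above all of them. Ppp1r15a, whose protein GADD34 brings a phosphatase to eIF2α and restores translation, had 75.5, 74.3 and 70.6 CPM in SIS3_TGFb, 31.9, 30.9 and 29.5 CPM in TGFb and 33.9, 34.1 and 35.6 CPM in Ctrl libraries (SIS3 step 1.24). Its TGFb libraries were all slightly below its Ctrl libraries. Its promoter is the stretch above whose cyclic AMP response element lies 12 bases before the start.

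Asns makes asparagine from aspartate and is a classical ATF4 target. Asns had 294, 293 and 292 CPM in SIS3_TGFb libraries, 152, 151 and 144 CPM in TGFb libraries and 160, 147 and 151 CPM in Ctrl libraries (SIS3 step 0.97), so its SIS3_TGFb libraries were nearly equal while the other groups overlapped. Eif4ebp1, the 4E-BP1 repressor of cap-dependent translation, averaged 210 ± 6.55 CPM in SIS3_TGFb, 100 ± 3.56 CPM in TGFb and 103 ± 4.36 CPM in Ctrl libraries (SIS3 step 1.06; SD, n = 3 each). Atf5, a transcription factor related to ATF4, had 54.2, 51.4 and 53.4 CPM in SIS3_TGFb, 28.3, 29.3 and 22.1 CPM in TGFb and 22.5, 26.5 and 25.5 CPM in Ctrl libraries (0.98). Psph, the last enzyme of serine synthesis, had the lowest SIS3 step of the 129 members at 0.80, with 46.1 ± 3.80, 26.3 ± 1.58 and 28.2 ± 1.82 CPM. Slc38a7, a lysosomal glutamine carrier, had a SIS3 step of 1.01 and is an example picked after its values were seen.

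The 6 genes from Slc6a9 to Psph that are in the ATF4 and amino acid response list are set beside that whole list here. Of 37 genes tested across all 9 libraries, 34 rose and 2 fell in SIS3_TGFb versus TGFb, with a median edgeR log2 change of 0.93 against 0.01 over all genes tested. The 6 members are among the 34, where the rule placed them. Over all 12212 genes tested, 21.2% rose and 20.6% fell in that comparison, so that 50.6% of the calls were higher, against 71.1% without scaling factors. The counts of every other list below are to be read beside these shares. In TGFb versus Ctrl 11 of the 37 rose and 13 fell, where 17.9% of all genes tested rose and 16.4% fell (52.2% of the calls higher, and 41.3% with upper-quartile factors). In SIS3_TGFb versus Ctrl 32 rose and 1 fell, against 29.0% and 24.9% of all genes tested (53.8% of the calls higher, and 63.8% without scaling factors). These 3 comparisons share libraries.

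On the scale of the rule, 24 genes of the ATF4 list reached a SIS3 step of 0.8. The 6 members came from the window, 10 genes had been lower than the window after TGF-β1 and 8 had been higher. Ddit3, which encodes the stress factor CHOP, shows the lower kind, with 131 ± 7.65 CPM in SIS3_TGFb, 18.9 ± 2.47 CPM in TGFb and 24.5 ± 1.05 CPM in Ctrl libraries (SD, n = 3 each). It rose by an edgeR log2 change of 2.71 (SE 0.072, adjusted p = 9.2e-13) in SIS3_TGFb versus TGFb and fell by 0.35 (SE 0.085, adjusted p = 0.0043) in TGFb versus Ctrl. Slc1a4, a carrier of neutral amino acids, did the same, with log2 changes of 2.07 (SE 0.049, edgeR adjusted p = 4.9e-13) and -0.42 (SE 0.054, adjusted p = 1.6e-05).

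Slc7a5 and Slc3a2, the chains of the large neutral amino acid transporter, show the higher kind. Slc7a5 measured 1379 ± 9.12 CPM in SIS3_TGFb, 540 ± 8.98 CPM in TGFb and 439 ± 10.7 CPM in Ctrl libraries (SD, n = 3 each), and rose at both steps, by edgeR log2 changes of 1.27 (SE 0.037, adjusted p = 1.8e-12) in SIS3_TGFb versus TGFb and 0.32 (SE 0.037, adjusted p = 3.7e-06) in TGFb versus Ctrl. Slc3a2 rose by 1.19 and 0.38 (edgeR adjusted p = 4.4e-12 and 7.4e-07). Trib3, a pseudokinase induced by ATF4, and Chac1, which degrades glutathione, went the other way at the SIS3 step. Trib3 fell to 37.8 ± 1.08 CPM in SIS3_TGFb, against 96.5 ± 2.99 CPM in TGFb libraries, with 9.48 ± 0.465 CPM in Ctrl libraries (edgeR log2 change -1.44 in SIS3_TGFb versus TGFb, SE 0.046, adjusted p = 4.6e-12). Chac1 fell by 1.26 on the edgeR log2 scale (SE 0.110, adjusted p = 3.1e-07).

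**Figure D3:**
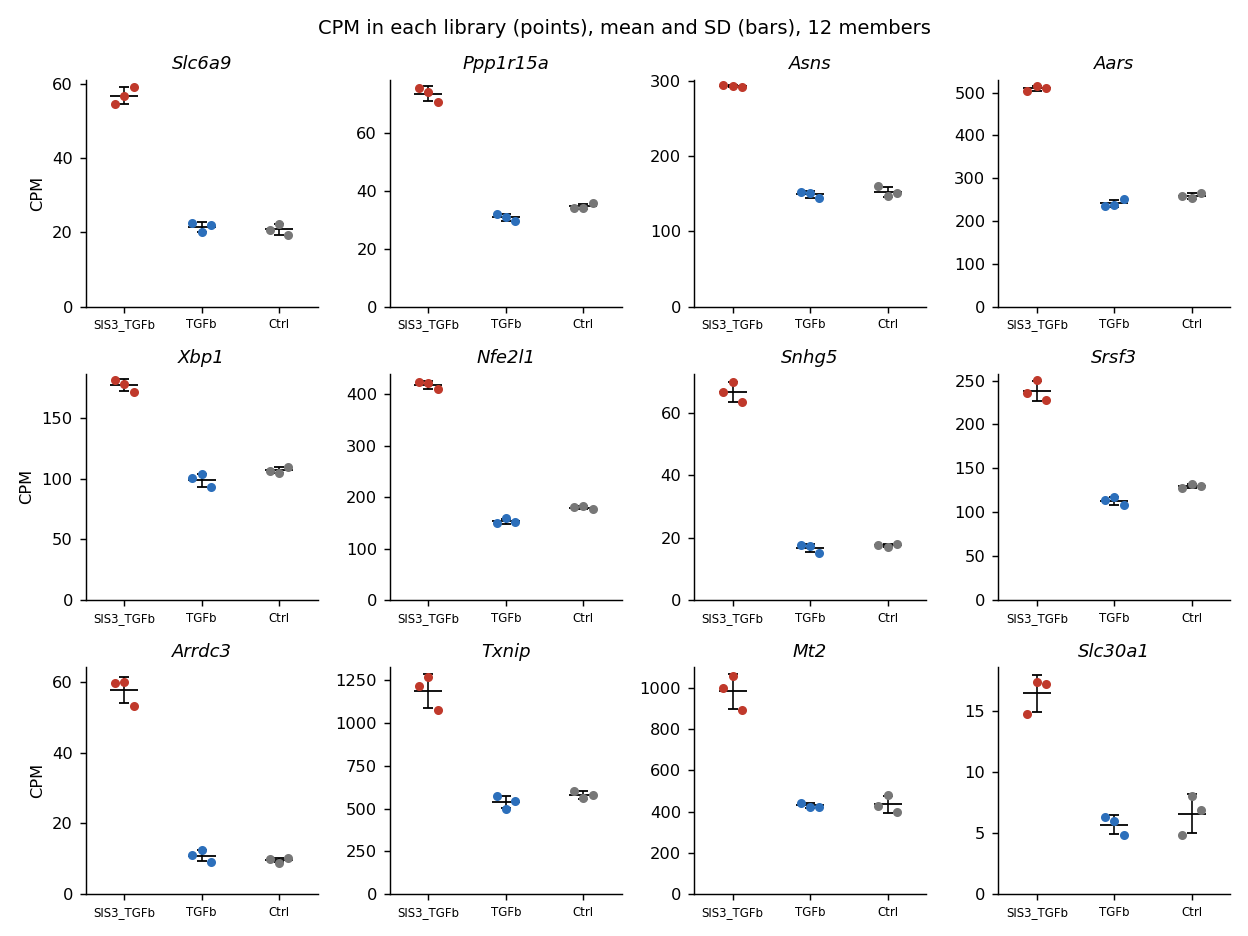
Levels in CPM of 12 members in the 9 libraries (points), with the mean and SD of each group of 3 (bars); every vertical axis starts at 0. In each panel the SIS3_TGFb libraries (left) lie above the TGFb (middle) and Ctrl (right) libraries, with SIS3_TGFb means from 16.4 CPM for Slc30a1 to 1186 CPM for Txnip.

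Aminoacyl-tRNA synthetases join each amino acid to its tRNA, and several of their genes carry ATF4 sites. The 4 members were Aars (alanine), Wars (tryptophan), Gars (glycine) and Eprs (glutamate and proline). Aars had 504, 515 and 511 CPM in SIS3_TGFb libraries, 235, 237 and 250 CPM in TGFb libraries and 257, 253 and 265 CPM in Ctrl libraries, a SIS3 step of 1.08. Its composite site, read on the reverse strand in the stretch above, lies 112 bases before that start. Gars had 505, 511 and 514 CPM in SIS3_TGFb, 271, 278 and 279 CPM in TGFb and 304, 323 and 307 CPM in Ctrl libraries (SIS3 step 0.89). Wars averaged 249 ± 3.73, 125 ± 3.47 and 135 ± 3.20 CPM (1.00), and Eprs 439 ± 9.07, 250 ± 3.62 and 275 ± 8.51 CPM (0.81) in SIS3_TGFb, TGFb and Ctrl libraries (SD, n = 3 each). In all 4 the TGFb libraries lay below the Ctrl libraries without overlap, within the window of the rule. Over the 10813 genes with at least 2 CPM, 47.3% had no overlap in either direction. The rule chose these 4 genes in part by this step, so nothing is read from their shared direction.

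Across the 20 synthetase genes tested by edgeR, 16 were higher, 2 were lower and 2 missed the threshold in SIS3_TGFb versus TGFb, with a median log2 change of 0.59, and the 4 members are among the 16. In TGFb versus Ctrl 13 fell and 7 did not pass, with a median of -0.17 against -0.00 over all genes tested. On the rule's scale 6 of the 20 reached 0.8, namely the 4 members with Cars and Nars, which were left out by their TGF-β1 step. Nars, for asparagine, missed the window narrowly and measured 302 ± 5.31 CPM in SIS3_TGFb, 150 ± 3.49 CPM in TGFb and 180 ± 5.17 CPM in Ctrl libraries (SD, n = 3 each). Cars, for cysteine, rose by an edgeR log2 change of 1.00 (SE 0.047, adjusted p = 2.6e-10). Mars1 and Tars, for methionine and threonine, each rose by 0.70 (edgeR adjusted p = 1.2e-09 and 2.0e-09). Qars, for glutamine, fell by 0.29 (SE 0.043, edgeR adjusted p = 6.4e-05), and Kars, for lysine, fell by 0.12 (SE 0.039, adjusted p = 0.017), a call that was lost without SIS3_TGFb replicate 1 or 3, without TGFb replicate 3 or with no scaling factors, at adjusted p from 0.051 to 0.41.

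**Figure D4:**
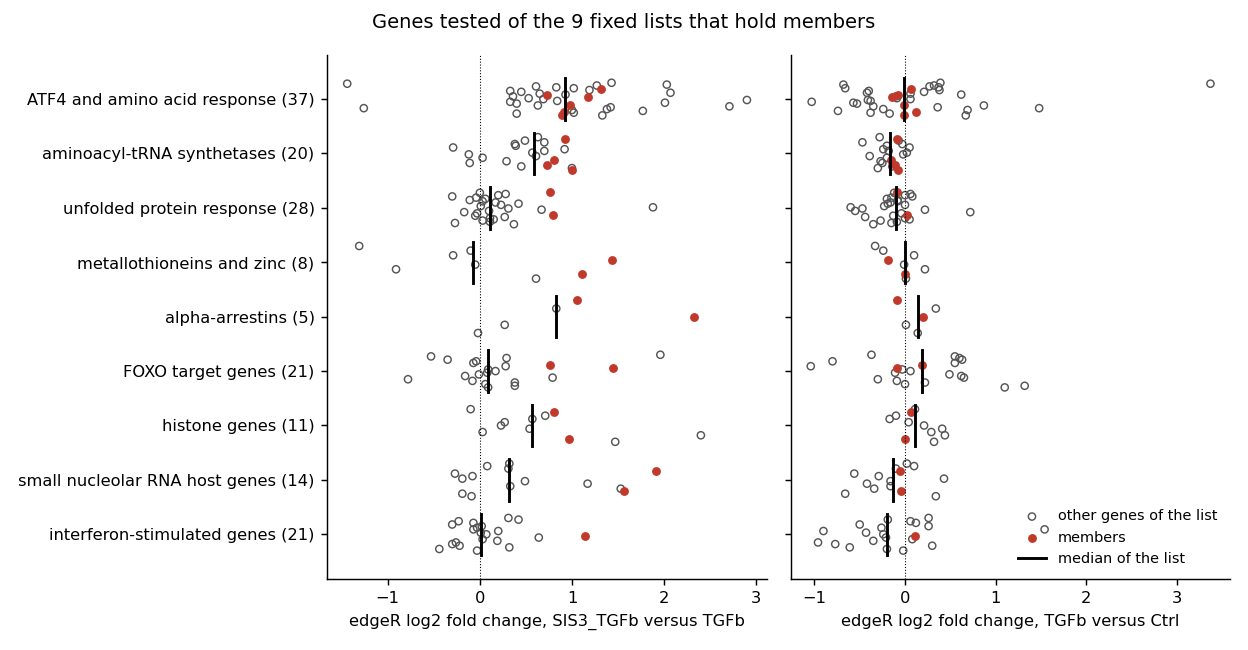
Each point is a gene of a list, placed by its edgeR log2 change in SIS3_TGFb versus TGFb (left panel) or TGFb versus Ctrl (right panel); members are red, other genes open, and the bar is the list's median, with the number of genes tested in brackets. In the left panel most genes of the ATF4 and synthetase lists are right of 0 (medians 0.93 and 0.59), while the unfolded protein response and interferon lists centre near 0 (0.11 and 0.01) with single members to the right.

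Among the 13 members for protein folding and turnover, Nfe2l1 had the highest CPM, a value not scaled for gene length. It encodes NRF1, a factor held in the endoplasmic reticulum that raises proteasome genes when proteasomes are overloaded. Nfe2l1 had 424, 422 and 410 CPM in SIS3_TGFb libraries, 149, 160 and 152 CPM in TGFb libraries and 181, 183 and 177 CPM in Ctrl libraries, a SIS3 step of 1.45. Its TGFb libraries were all below its Ctrl libraries, with a TGF-β1 step of -0.23. It left the members in at least 1 setting with a library left out. Creb3l2, a membrane-bound stress factor of the endoplasmic reticulum and Golgi, averaged 29.4 ± 1.90 CPM in SIS3_TGFb, 12.8 ± 0.513 CPM in TGFb and 12.1 ± 0.283 CPM in Ctrl libraries (SIS3 step 1.16; SD, n = 3 each). Fbxl12, which recruits substrates to an SCF ubiquitin ligase, had a SIS3 step of 1.10. Zfand2a, a partner of the proteasome induced by arsenite, had 62.9, 62.9 and 56.8 CPM in SIS3_TGFb, 35.6, 34.3 and 33.3 CPM in TGFb and 31.0, 32.7 and 31.9 CPM in Ctrl libraries (0.81), with its TGFb libraries all above its Ctrl libraries, and it was not kept with TMM scaling.

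Xbp1 and Dnajb9 were the members of the unfolded protein response list. Xbp1, the factor downstream of IRE1, had 181, 178 and 171 CPM in SIS3_TGFb, 100, 103 and 92.9 CPM in TGFb and 106, 105 and 109 CPM in Ctrl libraries (SIS3 step 0.84). The gene counts do not tell its spliced and unspliced mRNA apart. Dnajb9, a cochaperone induced by XBP1, averaged 47.8 ± 2.71, 26.2 ± 3.35 and 26.1 ± 1.34 CPM in the same groups (0.86). Neither was kept with TMM scaling or with every library left out in turn. Of 28 genes of this list tested, 13 rose, 4 fell and 11 did not pass in SIS3_TGFb versus TGFb, with a median of 0.11, and Xbp1 and Dnajb9 are among the 13 by the rule's own choice. Herpud1, which serves degradation of misfolded proteins and is also an ATF4 target, rose by an edgeR log2 change of 1.88 (SE 0.048, adjusted p = 6.5e-13) and had fallen by 0.60 in TGFb versus Ctrl (SE 0.051, adjusted p = 1.5e-07). Ern1, which encodes IRE1, rose by 0.67 (SE 0.063, adjusted p = 6.1e-07), and Hspa5, the chaperone BiP, by 0.42 (SE 0.038, adjusted p = 4.3e-07). Sel1l, of the degradation complex, rose by 0.28 (SE 0.034, adjusted p = 9.2e-06). Calr and Sdf2l1, for endoplasmic reticulum chaperones, fell by 0.27 and 0.30 (adjusted p = 2.5e-05 and 2.4e-04), all by edgeR.

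RNA processing genes contributed 7 members. Snhg5 and Snhg1 are hosts whose introns carry small nucleolar RNAs and whose spliced transcripts code for no protein. Snhg5 had 66.7, 69.8 and 63.4 CPM in SIS3_TGFb libraries, 17.6, 17.3 and 15.1 CPM in TGFb libraries and 17.7, 16.9 and 18.0 CPM in Ctrl libraries, a SIS3 step of 1.97. Snhg1 averaged 45.6 ± 2.66, 14.6 ± 1.03 and 15.2 ± 1.51 CPM in the same groups (1.61; SD, n = 3 each). For both, TGFb and Ctrl libraries overlapped. Among 14 host genes tested, 6 rose, 1 fell and 7 did not pass in SIS3_TGFb versus TGFb, with a median edgeR log2 change of 0.31. The 6 include Snhg5 and Snhg1, whose rise the rule fixed.

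Snhg12 and Snhg16 also reached 0.8 on the rule's scale but were lower than the window after TGF-β1. They rose by edgeR log2 changes of 1.53 (SE 0.102, adjusted p = 1.6e-08) and 1.17 (SE 0.129, adjusted p = 3.6e-06) in SIS3_TGFb versus TGFb. Snhg17 and Zfas1 rose by 0.49 and 0.32 (edgeR adjusted p = 0.0039 and 9.4e-04). Gas5 fell by 0.19 (SE 0.070, edgeR adjusted p = 0.044), and it missed the threshold in 8 alternatives, among them those without SIS3_TGFb replicate 1 or 3, TGFb replicate 1 or 2 or Ctrl replicate 3, at adjusted p from 0.05 to 0.27.

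Rbm39 and Srsf3 encode splicing factors. Rbm39 averaged 454 ± 24.2 CPM in SIS3_TGFb, 215 ± 12.1 CPM in TGFb and 210 ± 8.17 CPM in Ctrl libraries (SIS3 step 1.08), and Srsf3 averaged 238 ± 11.9, 113 ± 4.66 and 130 ± 2.19 CPM (1.07; SD, n = 3 each). Gemin2, of the complex that assembles spliceosomal ribonucleoproteins and the holder of a composite site shown above, had a lower SIS3 step of 0.83 and was not kept with TMM scaling. In the GENCODE annotation, 118 members were found, and 32.2% of them have a transcript marked for nonsense-mediated decay, near the 30.3% of the 10587 matched genes with at least 2 CPM. A retained-intron transcript is annotated for 49.2% of the members against 61.6% of those genes. An upstream ATG in the 5′ leader was found in 50.9% against 52.0%, and the median leader was 228 against 179 bases.

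The widest SIS3 step of all members was that of Arrdc3 (chromosome 13, 80883384 to 80896042 in RefSeq). It encodes an alpha-arrestin, an adaptor that sends membrane proteins to be ubiquitinated and taken up. Arrdc3 had 59.8, 60.1 and 53.4 CPM in SIS3_TGFb libraries, 11.1, 12.4 and 9.16 CPM in TGFb libraries and 9.86, 8.94 and 10.1 CPM in Ctrl libraries. The SIS3 step was 2.35, and the group mean was 5.30 times that of TGFb libraries. The TGFb and Ctrl libraries overlapped, and with a library left out its TGF-β1 step passed the window in at least 1 setting. Txnip, the alpha-arrestin that binds thioredoxin and lowers glucose uptake, had the highest mean CPM of the members, without scaling for length. Its values were 1217, 1267 and 1076 CPM in SIS3_TGFb, 571, 498 and 544 CPM in TGFb and 603, 559 and 579 CPM in Ctrl libraries (SIS3 step 1.14), and its promoter stretch with a FOXO site is shown above.

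Of the 5 alpha-arrestin genes tested, 4 rose and 1 did not pass in SIS3_TGFb versus TGFb, and the members Arrdc3 and Txnip are among the 4, where the rule placed them. Arrdc4, which was above the window at the TGF-β1 step, rose by an edgeR log2 change of 0.83 (SE 0.068, adjusted p = 1.4e-07), and Arrdc2 by 0.27 (SE 0.092, adjusted p = 0.026). The Arrdc2 call was lost with DESeq2 and without SIS3_TGFb replicate 2 or 3 or TGFb replicate 1 or 2, at adjusted p from 0.057 to 0.13. Irs2, an adaptor of the insulin receptor and a FOXO target, had 18.7, 17.7 and 15.1 CPM in SIS3_TGFb, 6.00, 5.71 and 6.11 CPM in TGFb and 7.38, 6.02 and 5.91 CPM in Ctrl libraries (SIS3 step 1.46). Pik3ip1, an inhibitor of PI3-kinase, averaged 26.2 ± 1.44, 14.6 ± 1.70 and 13.0 ± 0.635 CPM in the same groups (0.83; SD, n = 3 each).

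In the FOXO target list, 7 of 21 genes tested rose, 4 fell and 10 did not pass in SIS3_TGFb versus TGFb, with a median of 0.09. Irs2 and Pik3ip1 are among the 7 because the rule chose them for this step. Tsc22d3, which encodes the glucocorticoid-induced protein GILZ, rose by an edgeR log2 change of 1.96 (SE 0.054, adjusted p = 1.0e-12) after a fall of 0.37 in TGFb versus Ctrl. Fbxo32, a ubiquitin ligase subunit, rose by 0.79 (SE 0.094, adjusted p = 7.0e-06), Cdkn1b, a brake on the cell cycle, by 0.38 (SE 0.046, adjusted p = 7.8e-06), and Sesn3, a stress sensor, by 0.29 (SE 0.061, adjusted p = 0.0016), by edgeR. Cited2, a cofactor of transcription, fell by 0.78, and Sesn1, a sestrin induced by p53, by 0.35 (edgeR adjusted p = 7.4e-08 and 8.4e-05).

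Metal handling gave 2 members. Mt2, a metallothionein that binds zinc and copper, had 998, 1058 and 893 CPM in SIS3_TGFb libraries, 442, 424 and 423 CPM in TGFb libraries and 427, 480 and 399 CPM in Ctrl libraries (SIS3 step 1.19). Slc30a1, the zinc exporter ZnT1 of the cell surface, had 14.7, 17.4 and 17.2 CPM in SIS3_TGFb, 6.30, 5.95 and 4.84 CPM in TGFb and 4.83, 8.03 and 6.89 CPM in Ctrl libraries (1.45). TGFb and Ctrl libraries overlapped for both genes. Slc30a1 left the members in at least 1 setting with a library left out. The stretches above hold 4 metal response cores for Mt2 and 2 for Slc30a1. Mt1, the neighbouring metallothionein and no member, rose by an edgeR log2 change of 0.61 (SE 0.075, adjusted p = 1.0e-05). Slc39a10, a zinc importer, fell by 1.31 to 5.44 ± 0.650 CPM in SIS3_TGFb, against 12.7 ± 2.19 CPM in TGFb and 16.3 ± 2.13 CPM in Ctrl libraries (SD, n = 3 each; SE 0.140, adjusted p = 2.6e-06). Slc30a4, another exporter, fell by 0.29 (adjusted p = 6.7e-05). In the whole list of 8 genes tested, 3 rose, 2 fell and 3 did not pass, with a median of -0.08. The rule fixed the rise of both members, so Mt1 is the only riser among the other 6 genes.

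Lipid enzymes among the members were Elovl7, Soat2, Rdh10, Dgat1 and Them4. Soat2, which esterifies cholesterol for storage, had 43.2, 43.7 and 41.5 CPM in SIS3_TGFb libraries, 11.9, 11.4 and 11.1 CPM in TGFb libraries and 10.5, 10.2 and 10.4 CPM in Ctrl libraries (SIS3 step 1.86). Its TGFb libraries were all above its Ctrl libraries. Elovl7, a fatty acid elongase, had 6.79, 8.67 and 6.86 CPM in SIS3_TGFb, 1.82, 1.26 and 1.21 CPM in TGFb and 1.12, 1.03 and 1.22 CPM in Ctrl libraries (2.04), and it lay at the upper edge of the window. Elovl7 was kept neither with TMM scaling nor with every library left out in turn. Dgat1, which completes triglyceride synthesis, and Rdh10, which oxidises retinol, had SIS3 steps of 0.90 and 0.93. No gene of the cholesterol synthesis list was a member: 25 of its 27 genes tested fell in SIS3_TGFb versus TGFb, with a median edgeR log2 change of -0.33.

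Other members with wide steps were single genes of varied roles. Lrrc8d, a subunit of the volume-regulated anion channel, had 83.1, 88.9 and 79.9 CPM in SIS3_TGFb libraries, 29.0, 27.5 and 21.5 CPM in TGFb libraries and 22.0, 26.7 and 23.2 CPM in Ctrl libraries (SIS3 step 1.67). Glce, an epimerase of heparan sulfate synthesis, averaged 69.8 ± 6.02 CPM in SIS3_TGFb, 23.1 ± 0.407 CPM in TGFb and 25.0 ± 1.32 CPM in Ctrl libraries (1.57; SD, n = 3 each). Cyb5r1, a cytochrome b5 reductase, averaged 55.7 ± 1.15 CPM in SIS3_TGFb, 19.3 ± 1.23 CPM in TGFb and 17.0 ± 1.35 CPM in Ctrl libraries. Tbc1d31, a centrosomal protein, had a step of 1.42, and Ifrd1, a regulator of transcription, 1.34. Further members with steps from 1.11 to 1.36 were Glrp1, Btbd19, Coq8a of coenzyme Q synthesis, Sfmbt2 of the Polycomb group and Bmyc, a relative of Myc. Coq8a averaged 14.8 ± 0.559 CPM in SIS3_TGFb, 6.59 ± 0.977 CPM in TGFb and 6.39 ± 0.748 CPM in Ctrl libraries (SD, n = 3 each).

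Csprs had the second widest step (2.33) at a low level, with 5.64, 6.45 and 4.78 CPM in SIS3_TGFb, 0.910, 0.481 and 0.764 CPM in TGFb and 1.05, 1.03 and 0.366 CPM in Ctrl libraries. It belongs to a multi-copy family, so its counts are uncertain. The same holds for H2bc23 and H2bc24, whose expected counts were identical in all 9 libraries and which therefore count as a single measurement, and for the transcribed pseudogene 6820431F20Rik (SIS3 step 0.93).

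Among histone genes H1f2, a linker histone, and H3f3b, which encodes the replication-independent variant H3.3, were members of the fixed list. H1f2 averaged 178 ± 4.46 CPM in SIS3_TGFb, 85.6 ± 6.66 CPM in TGFb and 87.0 ± 0.251 CPM in Ctrl libraries (SIS3 step 1.05), and H3f3b 524 ± 23.7, 283 ± 10.6 and 273 ± 7.45 CPM (0.89; SD, n = 3 each). Of 11 histone genes tested, 6 rose and 5 did not pass in SIS3_TGFb versus TGFb, with a median of 0.57, and the rule fixed the rise of both members among the 6. H1f0, the linker histone of resting cells, rose by an edgeR log2 change of 1.47 (SE 0.046, adjusted p = 4.4e-12) and had risen by 0.32 in TGFb versus Ctrl, so the window left it out. H1f3, another linker histone, rose by 2.40 (SE 0.309, adjusted p = 1.7e-05) but averaged under 2 CPM. H2aw and H2bc4 rose by 0.54 and 0.27 (edgeR adjusted p = 0.0011 and 0.0025). In a library made from poly-A RNA, histone mRNAs that lack a poly-A tail are captured poorly.

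Immune and surface genes gave 7 members, and a single interferon-stimulated gene was among them. Mx1, a GTPase that blocks viruses, had 49.5, 53.7 and 49.4 CPM in SIS3_TGFb libraries, 22.4, 21.6 and 21.4 CPM in TGFb libraries and 21.7, 19.2 and 20.5 CPM in Ctrl libraries (SIS3 step 1.20). RefSeq lists Mx1 of this strain as a transcribed pseudogene. Of 21 interferon-stimulated genes tested, 3 rose, 1 fell and 17 did not pass, with a median of 0.01, and the rise of Mx1 was fixed by the rule. Besides Mx1, Isg15, a ubiquitin-like protein, rose by an edgeR log2 change of 0.64 (SE 0.164, adjusted p = 0.0052). Usp18, which removes ISG15 from proteins, rose by 0.42 (SE 0.160, adjusted p = 0.046), a call lost in 11 alternatives, among them leaving out any library but TGFb replicate 1, at adjusted p from 0.052 to 0.18. Stat2, a carrier of the interferon signal, fell by 0.23 (SE 0.055, adjusted p = 0.0035).

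Il16, a chemoattractant cytokine, averaged 111 ± 5.53 CPM in SIS3_TGFb, 54.4 ± 4.06 CPM in TGFb and 52.4 ± 1.16 CPM in Ctrl libraries (SIS3 step 1.02). P2ry10, a receptor for lysophospholipids, averaged 148 ± 6.13, 77.3 ± 6.54 and 80.1 ± 2.48 CPM (0.94), and Calcrl, the receptor chain for CGRP and adrenomedullin, 26.9 ± 0.803, 12.9 ± 0.473 and 13.0 ± 0.604 CPM (1.03; SD, n = 3 each). These 3 genes are examples picked after their values were seen.

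Hcar2, the niacin receptor of fat and myeloid cells, varied widely between replicates. It had 6.61, 5.32 and 13.8 CPM in SIS3_TGFb, 2.91, 4.63 and 1.78 CPM in TGFb and 3.35, 3.41 and 3.90 CPM in Ctrl libraries (SIS3 step 1.33), and SIS3_TGFb replicate 3 was the highest of its group. The same library had the highest sum of macrophage and monocyte markers in its group, at 1380 CPM against 868 and 805 CPM, over 12 genes of which none was at 0 in every library. That sum ran from 666 to 1071 CPM in TGFb libraries, lowest in replicate 3, which was also lowest for Hcar2, and from 951 to 1301 CPM in Ctrl libraries. The part of these markers in the Hcar2 values was not tested. Hcar2 stayed a member without SIS3_TGFb replicate 3. It left the members without TGFb replicate 2, where its TGF-β1 step lay below the window.

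The transcription factors among the members included Smad1, which carries signals of bone morphogenetic proteins. Smad1 had 23.9, 25.4 and 24.8 CPM in SIS3_TGFb libraries, 14.4, 14.5 and 12.3 CPM in TGFb libraries and 15.3, 15.2 and 17.3 CPM in Ctrl libraries (SIS3 step 0.83). It left the members with TMM scaling. The list of direct SMAD targets held no member. The rule leaves out genes outside the window, and of 12 list genes with at least 2 CPM only Cdkn2b lay within it. Nothing is therefore read from that absence. In TGFb versus Ctrl, 12 of the 16 genes tested rose, with a median edgeR log2 change of 1.36. In SIS3_TGFb versus TGFb, 6 of the 16 rose and 2 fell, with a median of 0.16. In SIS3_TGFb versus Ctrl, 12 of the 16 rose and 1 fell, with a median of 1.39.

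Mitochondrial proteins gave 5 members, with SIS3 steps from 0.83 to 1.11. Hax1, which guards mitochondria against cell death, had 116, 111 and 125 CPM in SIS3_TGFb libraries, 62.9, 67.1 and 62.7 CPM in TGFb libraries and 70.9, 79.8 and 73.5 CPM in Ctrl libraries (0.87). Its TGFb libraries were all below its Ctrl libraries, and its promoter is the last of the composite sites shown above. Mcu, the pore of the mitochondrial calcium uniporter, had a step of 0.93, and Tk2, the thymidine kinase of mitochondria, 0.83. The 5 members for replication and mitosis had steps from 0.83 to 1.03, among them Mcm8 and Rad51c, which serve repair of broken DNA, Orc5 of the origin recognition complex and Ndc80 of the kinetochore. All 5 had a TGF-β1 step below 0, from -0.25 to -0.05. Among all members the step lay below 0 in 77 and above 0 in 52, and the rule bounds it at -0.25. The shared sign in these 5 is a description, and nothing is read from it.

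No member came from the lists for the circadian clock, autophagy and lysosome, NRF2 antioxidant genes, AHR targets, p53 targets, HIF1 and glycolysis, LXR targets, heat shock or immediate early genes. Members are 1.19% of the genes with at least 2 CPM, and these lists held 2 (AHR) to 36 (autophagy) such genes. Nothing is therefore read from the absence of members in lists of that size. In SIS3_TGFb versus TGFb the heat shock list had 1 gene higher and 4 lower of 16 tested, the NRF2 list 4 higher and 5 lower of 18, and the p53 list 12 higher and 2 lower of 26. The list of HIF1 and glycolysis had 3 higher and 17 lower of 25. Over all 12212 genes tested, 21.2% rose and 20.6% fell in that comparison, and nothing is read from the small heat shock and NRF2 counts. In all, 23 of the 129 members were in a fixed list, from 9 of the 20 lists.

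By annotation, 118 of the members code for protein and 6 are long noncoding RNAs (4.69% of those in RefSeq, against 1.67% of the genes with at least 2 CPM). Their median span on the genome was 20273 bases, against 22795. Of the genes with at least 2 CPM, members were 13 of 619 (2.10%) on chromosome 1 and 13 of 583 (2.23%) on chromosome 8. On chromosome 14 they were 0 of 368, and over all such genes the share was 1.19%. No test was run on these counts, and nothing is read from them. No 2 members were next to each other on a chromosome (0 pairs).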

How the data were processed

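Poly-A RNA from 9 libraries of mouse NK cells in 3 groups of 3 (1 µg each) was sequenced as 100 bp DNBseq pairs, per the labels' protocols. The deposited table holds expected counts per gene, estimated reads without scaling, and that unit was read from the values. RSEM, Bowtie2, HISAT2, StringTie, Cufflinks, DESeq2, mm10 and GRCm38 are named per the submitters' processing notes. The sources used here give no roles, versions or strand setting, so reads of genes that overlap in opposite directions cannot be told apart.

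CPM for the rule was computed from the expected counts on column totals, with a pseudocount of 0.5. All 129 members passed the count filter below, which their level in the SIS3_TGFb group can decide. For the lists, expected counts were rounded and 12212 genes kept by filterByExpr (minimum count 10, minimum total 15), TMM factors applied and all 9 libraries fitted together with edgeR 4.0.16 in R 4.3.3 (glmQLFit, glmQLFTest; two-sided, Benjamini-Hochberg over the genes tested, threshold 0.05). Each SE is the log2 change divided by the root of its F statistic. The common biological coefficient of variation was 4.5%. P-values measure the spread between libraries, which may be technical. Runs with DESeq2 1.42.0, other scalings, no filter, a replicate block and each library left out were alternatives.

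Members and lists were chosen with earlier results of these data known. Named genes are the 30 members with the largest SIS3 step without numbered models and pseudogenes, the 10 with the highest mean CPM, members in a fixed list, genes beside each threshold, and for each list described up to 4 other genes with the smallest p and up to 2 of opposite direction. Other members named as examples of a role or family were picked after their values were seen. Positions and promoters are from RefSeq (GRCm38.p6), transcripts from GENCODE.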

Additional observations from a re-analysis of the deposited data

How the results depend on the processing

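The number of members depends most on the thresholds and the scaling. It was 129 as reported, 84 with TMM scaling of library totals, 83 with a window of 0.15, 326 with a SIS3 step of 0.6 and 47 with a SIS3 step of 1. These follow from the rule's construction, since fewer genes reach a stricter threshold and TMM factors lower the SIS3 step. Leaving out 1 library gave 115 to 137 members, with 99 to 122 of the 129 kept. Other pseudocounts, level minimums and a wider window gave 106 to 163. The number of genes called by edgeR stayed within 1.5 times under each alternative run: with a library left out, 4295 to 5080 in SIS3_TGFb versus TGFb (5104 as reported), 3571 to 4297 in TGFb versus Ctrl (4189) and 5875 to 6868 in SIS3_TGFb versus Ctrl (6585). Calls of list genes numbered 227, and 212 to 223 with a library left out. Without scaling factors, 71.1% of calls in SIS3_TGFb versus TGFb were higher, against 50.6% as reported, and 63.8% against 53.8% in SIS3_TGFb versus Ctrl; with upper-quartile factors, 41.3% were higher in TGFb versus Ctrl, against 52.2%. Of the values of named list genes under alternatives, 602 kept their call, 28 lost it (Arrdc2, Gas5, Kars and Usp18) and 0 reversed. These genes were picked mostly by smallest p in SIS3_TGFb versus TGFb, which favours keeping a call, and the count does not cover all list genes called. With replicate numbers as a block, 4803, 3942 and 6346 genes were called in SIS3_TGFb versus TGFb, TGFb versus Ctrl and SIS3_TGFb versus Ctrl, and 222 list genes. Deviations of same-numbered libraries correlated at -0.15 to 0.13. The labels do not say whether libraries of the same number belong together, and these values cannot settle it. Taking only the first promoter listed for a gene, an alternative chosen after seeing the data, left 2 members with a composite site instead of 3. Depth limits the 51 members under 10 CPM most.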
